A study of Mus musculus with 8 samples.

Results

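Described here are 10 genes that encode galectins, annexins, S100 proteins, vimentin and the LIM protein Crip1, in Tregs (regulatory T cells, which restrain immune responses) of mouse spleen. The 10 genes are Lgals1, Lgals3, Anxa1, Anxa2, S100a10, S100a4, S100a6, S100a11, Vim and Crip1, found by symbol among the 55487 genes of the deposited expression table. They were chosen from earlier results of the same libraries, on their levels in the 4 groups. Their values are therefore given as a description. Where calls of a model fitted over all genes are counted for them, the counts describe them too and are no independent test.

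The study set Tregs without SRC-3 (steroid receptor coactivator 3, encoded by Ncoa3) beside control Tregs, to look for transcript differences behind the anti-tumor effect of the knockout cells. Total RNA was sequenced after library preparation with the SMART-Seq v4 kit for low amounts of RNA. All 8 libraries came from spleens of mice that carried no tumor, and ages are not in the labels. KO YFP+ and KO YFP- are YFP+ and YFP- Tregs of SRC-3 KO mice, whose background is mixed from C57BL/6 and 129SvEv, each with numbers 84 and 85. WT YFP+ are YFP+ Tregs of WT Control mice on C57BL/6, numbers 23 and 24. SRC-3ff are Tregs of the mice labelled WT Control 2, on 129SvEv, numbers 68 and 72, with no YFP sort in the label. The labels say neither what drives YFP or the deletion, nor which cells recombine. The KO groups differ in strain from each control, and YFP+ groups differ in sort from SRC-3ff, so genotype, strain and sort cannot be told apart in the comparisons where they change together.

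Galectins are lectins that bind beta-galactoside sugars on surface glycoproteins, and galectin-1, the product of Lgals1, is a known mediator of suppression by Tregs. Annexins bind membrane phospholipids in a calcium-dependent way, and S100 proteins are small calcium-binding partners of annexins, myosin and other proteins. Several of these genes are widely used to describe activated and memory T cells as opposed to resting ones.

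Expression is given as FPKM, fragments divided by transcript length and by the number mapped, which allows levels of different genes to be compared per length. Differences are on the log2(FPKM + 1) scale, with the standard error (SE) of a limma model fitted to 14134 genes and all 8 libraries. A gene is called where its Benjamini-Hochberg adjusted p in limma is below 0.05. The FPKM of a library summed to between 384107 and 416393, and the depth behind them is unknown. Ncoa3 had 10.9 and 10.2 FPKM in KO YFP+, 32.1 and 32.2 in KO YFP-, 46.3 and 42.7 in WT YFP+, and 49.7 and 35.4 in SRC-3ff. Ncoa3 was lower in KO YFP+ than WT YFP+ (adjusted p = 0.0034 in limma) and was not called between KO YFP- and WT YFP+ (adjusted p = 0.134) or SRC-3ff (adjusted p = 0.271). Foxp3, the lineage factor of Tregs, had 21.0 and 22.9 FPKM in KO YFP+, 161 and 113 in KO YFP-, 31.0 and 19.9 in WT YFP+, and 205 and 151 in SRC-3ff. Foxp3 thus divided the YFP+ libraries from the others, with the YFP+ libraries lower. Il2ra, the alpha chain of the interleukin-2 receptor, had 95.7 and 92.4 FPKM in KO YFP+, 43.5 and 42.8 in KO YFP-, 113 and 113 in WT YFP+, and 107 and 83.1 in SRC-3ff. KO YFP+ was thus below KO YFP- for Foxp3 (log2 difference -2.56 ± 0.26, adjusted p = 0.0047 in limma) and above it for Il2ra (1.11 ± 0.12, adjusted p = 0.00604). Ikzf2, Ctla4 and Tnfrsf18, the other Treg markers listed, were not called in any comparison.

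In 8 of the 10 genes, all 4 YFP+ libraries lay below all 4 other libraries, against 10.9% of all genes tested, a count from which nothing is read because the genes were chosen on such levels. Lgals3 and Anxa1 showed the widest gaps, S100a6 and S100a4 came next, and Lgals1, Anxa2, S100a11 and S100a10 had smaller ones. Vim and Crip1 were the exceptions, with YFP+ and other libraries intermingled. Summed over the 10 genes, expression was 1386 and 1586 FPKM in KO YFP+, 3130 and 2879 in KO YFP-, 1262 and 1453 in WT YFP+, and 2319 and 3644 in SRC-3ff. This was 0.348% and 0.381% of the library in KO YFP+, 0.770% and 0.730% in KO YFP-, 0.329% and 0.357% in WT YFP+, and 0.600% and 0.895% in SRC-3ff. In bulk RNA, fewer cells that express a gene and less RNA per cell cannot be told apart.

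**Figure D1:**
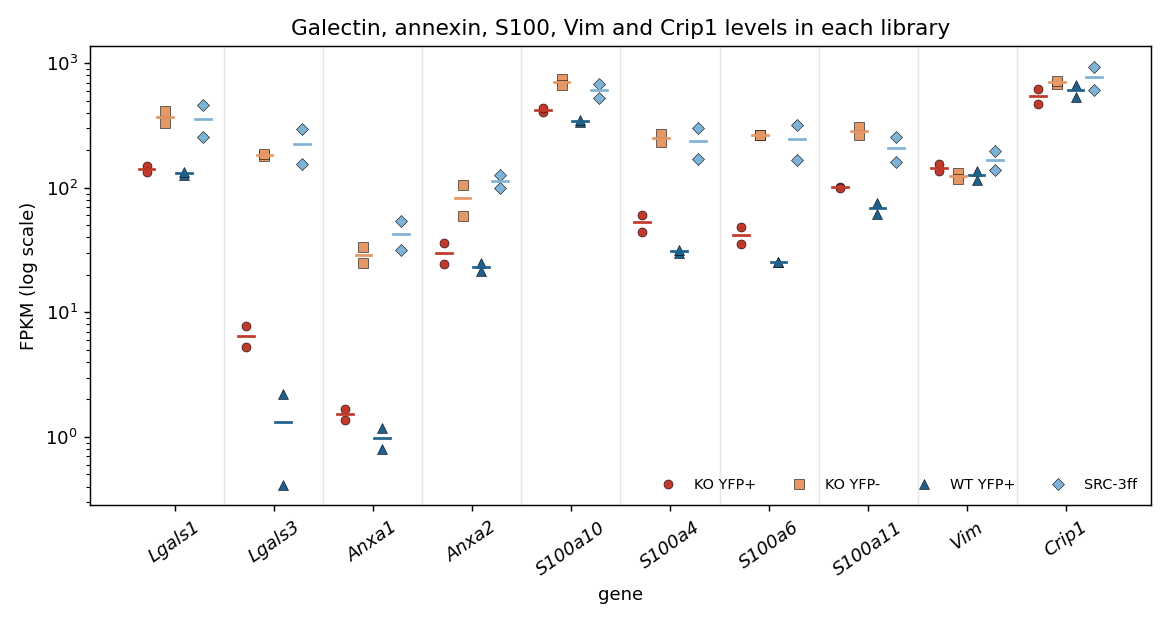
FPKM of the 10 genes on a log axis, with 1 point per library and a line at the mean of each group of 2 (KO YFP+, KO YFP-, WT YFP+ and SRC-3ff from left to right within each gene). The YFP+ points lie below the others for every gene from Lgals1 to S100a11 and not for Vim and Crip1; the lowest value is 0.415 FPKM for Lgals3 in WT YFP+ 23.

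Promoter sequence was set beside these levels for the 4 genes with the widest gaps and for Vim, whose profile lay farthest from the others. RefSeq windows on GRCm38.p6, from 250 bases before to 50 after each annotated start, were found for 8 of the 10 genes and not for Lgals1 and S100a10. RefSeq starts can differ from those of GENCODE, whose gene spans are given below. The windows are printed 5′ to 3′ on the gene's strand, in lower case, with matches to the 5 searched motifs in capitals. The motifs were read on both strands. AP-1 was searched as TGANTCA and the KLF family as CCACCC. The TATA box was searched as TATAAA, the RUNX family as TGTGGT and the STAT family as TTCNNNGAA. No match overlapped another in these windows.
Lgals3 promoter, chr14:47373610-47373909, plus strand: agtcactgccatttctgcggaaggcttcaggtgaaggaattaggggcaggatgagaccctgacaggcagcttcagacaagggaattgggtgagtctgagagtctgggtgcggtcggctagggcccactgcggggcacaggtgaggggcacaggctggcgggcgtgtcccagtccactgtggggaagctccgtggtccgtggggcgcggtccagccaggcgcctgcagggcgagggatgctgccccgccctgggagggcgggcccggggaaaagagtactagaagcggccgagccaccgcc
Anxa1 promoter, chr19:20390622-20390921, minus strand: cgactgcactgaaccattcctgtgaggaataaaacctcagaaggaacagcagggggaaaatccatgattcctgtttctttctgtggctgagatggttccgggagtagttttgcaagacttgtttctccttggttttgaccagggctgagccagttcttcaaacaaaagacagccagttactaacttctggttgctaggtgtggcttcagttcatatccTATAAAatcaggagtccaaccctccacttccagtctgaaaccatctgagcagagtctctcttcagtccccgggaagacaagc
S100a4 promoter, chr3:90603520-90603819, plus strand: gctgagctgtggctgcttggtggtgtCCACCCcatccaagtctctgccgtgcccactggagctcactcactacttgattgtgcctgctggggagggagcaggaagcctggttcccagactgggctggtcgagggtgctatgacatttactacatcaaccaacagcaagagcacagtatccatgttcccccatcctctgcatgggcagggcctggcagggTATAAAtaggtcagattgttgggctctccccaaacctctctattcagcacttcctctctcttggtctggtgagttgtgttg
S100a6 promoter, chr3:90612644-90612943, plus strand: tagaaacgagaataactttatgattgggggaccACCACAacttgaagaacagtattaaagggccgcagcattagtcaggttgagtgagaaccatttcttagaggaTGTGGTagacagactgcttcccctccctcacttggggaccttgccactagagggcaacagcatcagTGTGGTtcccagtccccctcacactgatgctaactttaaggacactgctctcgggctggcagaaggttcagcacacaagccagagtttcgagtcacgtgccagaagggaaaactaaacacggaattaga
Vim promoter, chr2:13574061-13574360, plus strand: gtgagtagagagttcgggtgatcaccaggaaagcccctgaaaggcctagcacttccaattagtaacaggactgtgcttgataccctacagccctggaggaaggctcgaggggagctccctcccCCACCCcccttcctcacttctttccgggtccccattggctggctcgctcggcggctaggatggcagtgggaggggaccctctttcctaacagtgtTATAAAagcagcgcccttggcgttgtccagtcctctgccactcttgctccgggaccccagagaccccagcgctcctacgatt
Positions are those of the first base of a match, counted from the annotated start. The capitals in Anxa1 mark TATAAA at position -32. In S100a4 they mark CCACCC at -224 and TATAAA at -31, and in Vim CCACCC at -127 and TATAAA at -32. S100a6 held 3 RUNX matches, at -217, -145 and -79, and the Lgals3 window held none of the 5 motifs. Over the 8 windows, TATAAA occurred in 4, against 13.6% of all 32851 promoters in the table. CCACCC occurred in 4 of 8, against 31.5% of all promoters, and TGANTCA in 2 of 8 (Anxa2 and S100a11), against 7.81%. TGTGGT occurred in 1 of 8, against 16.8%, and TTCNNNGAA in 0 of 8, against 8.30%. The TATAAA match was thus found both in genes with a wide gap between YFP+ and other libraries (Anxa1, S100a4) and in Vim. Among the printed windows GC content also varied, from 47.3% in the Anxa1 window to 67.0% in that of Lgals3, with 59.3% in that of Vim, and the median of all promoters was 52.7%.

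Lgals3 encodes galectin-3, which binds branched N-glycans and can cross-link T cell surface receptors (chr14:47367751-47386160, plus strand, GRCm38). Lgals3 had 5.32 and 7.73 FPKM in KO YFP+, 182 and 186 in KO YFP-, 0.415 and 2.21 in WT YFP+, and 156 and 298 in SRC-3ff. The YFP+ libraries were all at or below 7.73 FPKM and the others all at or above 156, with nothing in between. Lgals3 was lower by a factor of 28.2 in KO YFP+ than KO YFP- (group means; log2 difference -4.64 ± 0.43, SE) and by a factor of 173 in WT YFP+ than SRC-3ff (-6.67 ± 0.43). Within the YFP+ sort both KO libraries lay above both WT libraries (log2 difference 1.80 ± 0.43), a difference at the bottom of the range that was not called. The WT YFP+ libraries themselves differed by a factor of 5.32.

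Lgals1, the gene of galectin-1, was far more even (chr15:78926725-78930465, plus strand). It had 150 and 134 FPKM in KO YFP+, 411 and 330 in KO YFP-, 128 and 135 in WT YFP+, and 254 and 464 in SRC-3ff. YFP+ cells thus kept a high Lgals1 level where Lgals3 did not exceed 7.73 FPKM. Between the sorts of KO mice, the gap was a factor of 2.60 (log2 difference -1.37 ± 0.26 for KO YFP+ minus KO YFP-). WT YFP+ was lower than SRC-3ff by a factor of 2.74 (-1.38 ± 0.26). KO YFP+ and WT YFP+ overlapped.

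Anxa1 encodes annexin A1, a glucocorticoid-induced ligand of formyl peptide receptors (chr19:20373428-20390944, minus strand). It had 1.38 and 1.69 FPKM in KO YFP+, 24.9 and 33.3 in KO YFP-, 1.17 and 0.797 in WT YFP+, and 31.8 and 54.2 in SRC-3ff. As with Lgals3, the YFP+ libraries held very little of the transcript and the other libraries did not. Anxa1 was lower by a factor of 19.0 in KO YFP+ than KO YFP- (log2 difference -3.56 ± 0.27) and by a factor of 43.7 in WT YFP+ than SRC-3ff (-4.43 ± 0.27). The pseudocount of 1 understates such changes at low levels, and with 0.1 the first difference was -4.15 and the second -5.28.

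Annexin A2, from Anxa2, works at the plasma membrane as a complex with S100a10 and is known there as a receptor for plasminogen (chr9:69453620-69491795, plus strand). Anxa2 had 35.8 and 24.7 FPKM in KO YFP+, 106 and 59.8 in KO YFP-, 21.4 and 25.0 in WT YFP+, and 99.8 and 127 in SRC-3ff. The YFP+ groups did not overlap the other groups, although the KO YFP- libraries differed from each other by a factor of 1.77. The antisense gene Gm16144 overlaps exons of Anxa2 and did not exceed 0.353 FPKM, and whether strand was used in counting is unknown. The log2 difference was -1.39 ± 0.29 for KO YFP+ minus KO YFP- and -2.24 ± 0.29 for WT YFP+ minus SRC-3ff.

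S100a10, the partner of annexin A2, was more abundant than Anxa2 in every library (chr3:93555080-93564643, plus strand). It had 405 and 435 FPKM in KO YFP+, 748 and 668 in KO YFP-, 340 and 349 in WT YFP+, and 525 and 688 in SRC-3ff. Its gap between YFP+ and other libraries was the smallest of the 8 genes that separated them. This was a log2 difference of -0.75 ± 0.14 for KO YFP+ minus KO YFP- and -0.80 ± 0.14 for WT YFP+ minus SRC-3ff. S100a10 was also the only one of these 8 genes not called between KO YFP+ and SRC-3ff (-0.52 ± 0.14). The partners of the complex thus differed unequally between YFP+ and other libraries, Anxa2 by more than S100a10.

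S100a4, also known as metastasin, binds non-muscle myosin and is common in memory T cells (chr3:90603771-90606045, plus strand). It had 44.6 and 61.0 FPKM in KO YFP+, 272 and 232 in KO YFP-, 30.1 and 31.8 in WT YFP+, and 170 and 301 in SRC-3ff. The 4 groups fell into a low pair and a high pair, with KO YFP+ above WT YFP+ in the low pair and the high pair overlapping. S100a4 was lower by a factor of 4.77 in KO YFP+ than KO YFP- (log2 difference -2.25 ± 0.27) and by a factor of 7.63 in WT YFP+ than SRC-3ff (-2.83 ± 0.27). The S100a4 values carry an uncertainty of counting, because the annotation holds a second gene on the same strand, Gm42674, and 2 of its 4 exons overlap exons of S100a4. Gm42674 had 35.1 and 50.7 FPKM in KO YFP+, 213 and 192 in KO YFP-, 25.2 and 25.4 in WT YFP+, and 133 and 241 in SRC-3ff, so reads of S100a4 may have been divided between both. The sum of both genes differed by -2.25 on the log2 scale between KO YFP+ and KO YFP- and by -2.83 between WT YFP+ and SRC-3ff, the same as S100a4 alone, while the level of S100a4 itself depends on how the reads were divided.

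S100a6, also called calcyclin, binds the protein encoded by Cacybp (chr3:90612882-90624181, plus strand). It had 35.4 and 48.1 FPKM in KO YFP+, 265 and 266 in KO YFP-, 25.6 and 25.3 in WT YFP+, and 169 and 322 in SRC-3ff. Its profile was closest to that of S100a4 among the 10 genes. The log2 difference was -2.66 ± 0.29 for KO YFP+ minus KO YFP- and -3.15 ± 0.29 for WT YFP+ minus SRC-3ff.

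S100a11, a binding partner of annexin A1, lay in between (chr3:93520488-93526287, plus strand). It had 103 and 99.3 FPKM in KO YFP+, 305 and 267 in KO YFP-, 61.4 and 75.7 in WT YFP+, and 162 and 256 in SRC-3ff. S100a11 was the only one of the 10 genes with all groups apart from each other, in the order KO YFP-, SRC-3ff, KO YFP+, WT YFP+ from high to low. The gap between KO YFP- and SRC-3ff was narrow, from 256 to 267 FPKM, and was not called. Over all genes tested, 3873 of 14134 were also higher in KO YFP- than SRC-3ff without overlap. The log2 difference of S100a11 was -1.49 ± 0.21 for KO YFP+ minus KO YFP-, -1.56 ± 0.21 for WT YFP+ minus SRC-3ff and 0.49 ± 0.21 for KO YFP- minus SRC-3ff.

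Vim encodes vimentin, the intermediate filament protein of lymphocytes (chr2:13573927-13582826, plus strand). It had 136 and 154 FPKM in KO YFP+, 133 and 118 in KO YFP-, 116 and 136 in WT YFP+, and 138 and 197 in SRC-3ff. Vim was thus abundant in all libraries, and neighbours in the order of group means (SRC-3ff, KO YFP+, WT YFP+, KO YFP-) differed by no more than 0.21 on the log2 scale, close to the SE of 0.18. The log2 difference was 0.21 ± 0.18 for KO YFP+ minus KO YFP- and -0.39 ± 0.18 for WT YFP+ minus SRC-3ff, and no comparison was called.

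Crip1, a small LIM-domain protein that binds zinc, was the most abundant of the 10 genes in every library but KO YFP- 84 (chr12:113146316-113153879, plus strand). It had 469 and 621 FPKM in KO YFP+, 684 and 719 in KO YFP-, 540 and 673 in WT YFP+, and 613 and 937 in SRC-3ff. Most groups overlapped, and KO YFP- stood just above both YFP+ groups. The log2 difference was -0.38 ± 0.23 for KO YFP+ minus KO YFP- and -0.33 ± 0.23 for WT YFP+ minus SRC-3ff, with no call.

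**Figure D2:**
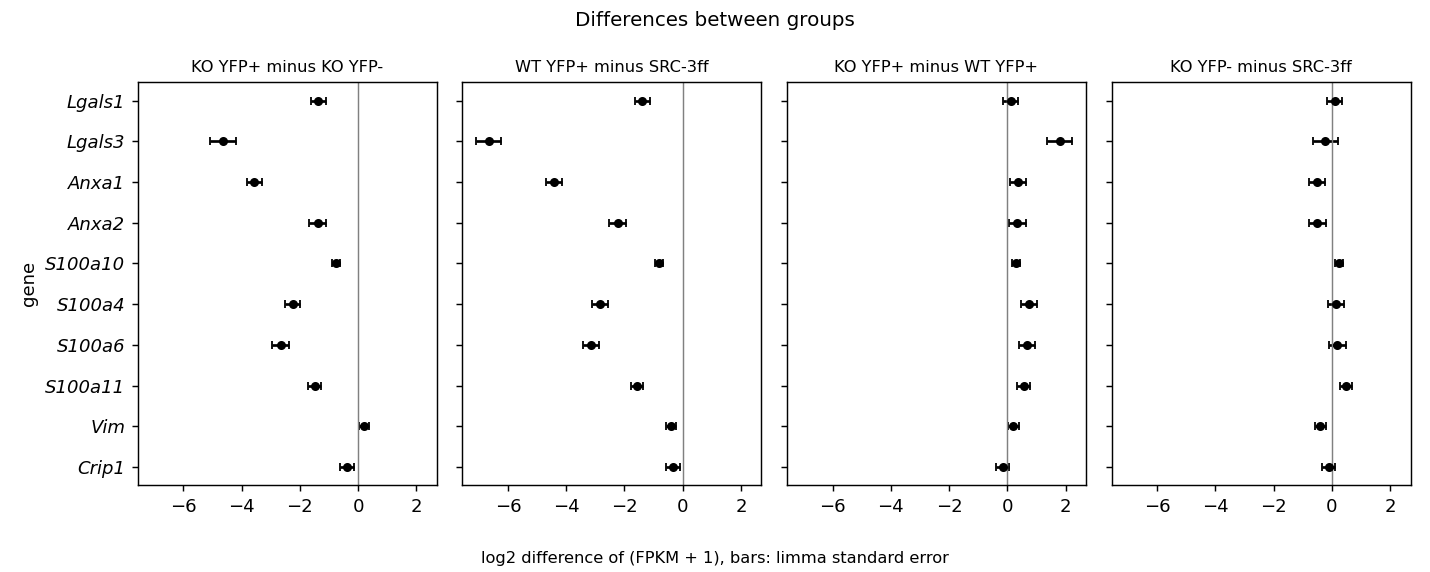
Log2 differences of (FPKM + 1) with limma standard errors for the 10 genes, in 4 comparisons of groups of 2 libraries. The 8 genes from Lgals1 to S100a11 lie below 0 in both comparisons of YFP+ cells with other cells, from -0.75 for S100a10 to -6.67 for Lgals3, while the other comparisons stay between -0.51 for Anxa1 and 1.80 for Lgals3.

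Inside the SRC-3 KO mice, KO YFP+ set against KO YFP- gave 8 of the 10 genes called lower and 0 higher, with 3.46% of all genes called lower and 4.90% called in either direction. Nothing is read from that count either, nor from those of the other comparisons. The median log2 difference of the 10 genes was -1.44, against -0.02 over all genes tested. Lgals3, Anxa1, S100a6 and S100a4 led, and Vim and Crip1 were not called. Leaving out KO YFP+ 84 gave 3 calls, leaving out KO YFP+ 85 or KO YFP- 84 gave 4, and 5 calls were made without KO YFP- 85, WT YFP+ 23 or WT YFP+ 24. With no filter on low values 2 calls were left, those of Lgals3 and Anxa1. With the numbers 84 and 85 as a replicate block the number was 6, and Lgals1 and S100a10 were not called.

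Between the controls, WT YFP+ had 8 of the 10 genes called lower than SRC-3ff, the same 8 genes as between the KO sorts, with 5.49% of all genes called lower and 9.22% in either direction. The median log2 difference was -1.90, against -0.03 over all genes. The same-direction gap therefore appeared in mice that the labels call controls as well as in KO mice, and here strain (C57BL/6 against 129SvEv) changed together with the sort. Lgals1 was not called without WT YFP+ 23 or WT YFP+ 24, nor S100a10 without either of these or SRC-3ff 72, and neither was called with only the 4 libraries compared. With no filter on low values 5 calls were made.

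Across genotypes and sorts, KO YFP+ against SRC-3ff gave 7 of the 10 genes called lower, with 6.09% of all genes called lower and 10.2% in either direction. Log2 differences ran from -4.86 ± 0.43 for Lgals3 and -4.07 ± 0.27 for Anxa1 to -0.19 ± 0.18 for Vim. The number of calls was 4 when KO YFP+ 84, KO YFP+ 85 or SRC-3ff 72 was left out, and 3 with no filter on low values. KO YFP- against WT YFP+ gave 8 of 10 called higher, with 5.90% of all genes called higher and 9.27% in either direction. There Lgals3 was higher by 6.44 ± 0.43 and Anxa1 by 3.92 ± 0.27 on the log2 scale. Lgals1 was not called there without any one of the 4 libraries compared, nor Anxa2 without WT YFP+ 23 or WT YFP+ 24, and neither was called with no filter. These comparisons share libraries with those above, so they add no separate evidence.

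Where the sort was the same, KO YFP+ against WT YFP+ gave 0 of the 10 genes called in limma, with 0.757% of all genes called, and 4 of the 10 had an unadjusted p below 0.05, against 10.4% of all genes. In 7 of the 10 genes (Lgals3, Anxa1, S100a10, S100a4, S100a6, S100a11 and Vim) both KO YFP+ libraries lay higher than both WT YFP+ libraries, against 20.6% of all genes tested. The log2 differences of these 7 genes ran from 0.21 ± 0.18 for Vim to 1.80 ± 0.43 for Lgals3, with 0.74 ± 0.27 for S100a4 and 0.68 ± 0.29 for S100a6. Lgals1 (0.11 ± 0.26), Anxa2 (0.35 ± 0.29) and Crip1 (-0.16 ± 0.23) overlapped. The median was 0.35, against 0.01 over all genes. Genotype and strain change together in this comparison.

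KO YFP- against SRC-3ff likewise gave 0 of the 10 genes called in limma, with 0.644% of all genes called, and 0 of the 10 had an unadjusted p below 0.05, against 18.3% of all genes. The median log2 difference was -0.01, against 0.01 over all genes, and 5 genes were positive and 5 negative. The sign of several differences changed with the SRC-3ff library left out. SRC-3ff 72 was above SRC-3ff 68 in 10 of the 10 genes, by factors of 1.28 for Anxa2 to 1.91 for S100a6 (median 1.64). In the other groups the median factor between the libraries was 1.27 for KO YFP+, 1.14 for KO YFP- and 1.17 for WT YFP+, and neither library was higher throughout. Without SRC-3ff 72, the log2 difference of Lgals3 was 0.24 and that of Crip1 0.19, against -0.23 and -0.11 with both libraries. Without SRC-3ff 68, S100a6 was at -0.28, S100a4 at -0.26 and Lgals1 at -0.33, against 0.19, 0.15 and 0.10 with both libraries. Whichever library was left out, Anxa1 (from -0.89 to -0.14), Anxa2 (from -0.90 to -0.09) and Vim (from -0.65 to -0.14) stayed lower in KO YFP- than in SRC-3ff, and S100a10 (from 0.04 to 0.43) and S100a11 (from 0.16 to 0.81) stayed higher.

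The likeness of the profiles was measured as the root-mean-square (RMS) distance over the 8 libraries, after each gene was centred and scaled to unit variance, so that 0 means the same shape. S100a4 and S100a6, neighbours on chromosome 3, were the closest at 0.06. S100a10 and S100a11 followed at 0.11, and S100a4 and Lgals3 at 0.15. Anxa2 and its partner S100a10 were farther apart, at 0.48. From the mean profile of the 10 genes, Vim lay at 0.97 and Crip1 at 0.65, and the other 8 genes between 0.20 and 0.33. That mean profile was compared with 6864 other genes with a mean of at least 5 FPKM. Predicted genes such as Gm42674, clone names, pseudogenes, antigen receptor segments and mitochondrially encoded genes were left out. The 8 nearest among those compared were Parp16, Trpv2, Avpi1, Evi2a, Creld2, Eif2b5, Carhsp1 and Rab3d, at 0.17 to 0.22. Avpi1 had 4.99 and 4.74 FPKM in KO YFP+, 11.4 and 13.9 in KO YFP-, 2.99 and 4.01 in WT YFP+, and 10.3 and 21.0 in SRC-3ff. Eif2b5, a subunit of a translation initiation factor, had the same shape with almost no amplitude, at 29.4 and 30.1 FPKM in KO YFP+, against 32.4 and 31.3 in KO YFP-. Likeness of shape is therefore no statement on the size of a difference.

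The rest of the same families was then examined, taken by symbol rather than by level. It comprised 41 further genes, with the binding proteins Lgals3bp and S100pbp among them, of which 15 passed the filter on low values, 26 did not and 8 were listed at 0 in every library. Between KO YFP+ and KO YFP-, 0 of the 15 were called in limma (5 had an unadjusted p below 0.05, against 18.8% of all genes), and the median log2 difference was -0.13. Between WT YFP+ and SRC-3ff, 3 of 15 were called lower, namely Anxa11, Anxa4 and S100a1, against 5.49% of all genes. Several relatives were as abundant as the 10 genes and did not follow them. Anxa6, another annexin, had 306 and 325 FPKM in KO YFP+, 307 and 326 in KO YFP-, 305 and 327 in WT YFP+, and 342 and 399 in SRC-3ff. Lgals9, the gene of galectin-9, had 165 and 166 FPKM in KO YFP+, 131 and 132 in KO YFP-, 153 and 182 in WT YFP+, and 126 and 130 in SRC-3ff. Its order was the opposite of that of Lgals1 and Lgals3, with all YFP+ libraries above the others, and it was not called. Anxa5 lay between 60.3 and 81.3 FPKM, S100a13 between 63.4 and 85.3, Csrp1 between 30.9 and 50.8, and Lgals3bp between 38.7 and 64.3, with no call in any comparison. Lgals8 and Anxa7 did split as the 8 genes did, by smaller amounts. Lgals8 was at 14.0 to 16.3 FPKM in the YFP+ libraries and 17.8 to 20.4 in the others. Anxa7 was at 14.3 to 16.3 FPKM in the YFP+ libraries and 17.9 to 20.5 in the others. Neither was called in any comparison. Anxa4 and S100a1, which were called and are described below, also split in this way. Anxa4 was at 2.30 to 4.31 FPKM in the YFP+ libraries and 5.38 to 6.76 in the others. S100a1 was at 0.554 to 1.10 FPKM in the YFP+ libraries and 1.91 to 3.79 in the others.

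Anxa11 was the one relative called between KO YFP+ and WT YFP+. It had 11.9 and 11.5 FPKM in KO YFP+, 13.1 and 12.8 in KO YFP-, 6.36 and 6.33 in WT YFP+, and 10.7 and 11.5 in SRC-3ff. WT YFP+ was thus the group that stood apart. Anxa11 rose in KO YFP+ relative to WT YFP+ by 0.79 ± 0.11 on the log2 scale (adjusted p = 0.0315 in limma) and in KO YFP- relative to WT YFP+ by 0.92 ± 0.11 (adjusted p = 0.00432), and it fell in WT YFP+ relative to SRC-3ff (-0.72 ± 0.11, adjusted p = 0.0105). The call between KO YFP+ and WT YFP+ was lost without any single library, with only the 4 libraries compared and with the replicate block (adjusted p up to 0.171), while that between KO YFP- and WT YFP+ held in all 15 alternatives. The call between WT YFP+ and SRC-3ff was lost without WT YFP+ 24 or SRC-3ff 72 and with only the 4 libraries compared (adjusted p up to 0.0839). Anxa4 had 4.31 and 3.09 FPKM in KO YFP+, 6.38 and 5.38 in KO YFP-, 2.76 and 2.30 in WT YFP+, and 6.15 and 6.76 in SRC-3ff, and was called between KO YFP- and WT YFP+ (log2 difference 0.96 ± 0.19, adjusted p = 0.0239 in limma) and between WT YFP+ and SRC-3ff (-1.08 ± 0.19, adjusted p = 0.0169). The first Anxa4 call was lost without any one of the 4 libraries compared and in a fit of those 4 alone (adjusted p up to 0.126), the second without WT YFP+ 24 or SRC-3ff 72 (up to 0.109), and both with no filter.

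The 4 S100 genes of the group lie among 15 S100 genes on chromosome 3, which span 3.05 Mb. S100a4 and S100a6 start 9.11 kb apart with S100a5 between them, and S100a11 and S100a10 form the far end. Of the other 11 genes, 9 did not pass the filter on low values, and none of those exceeded 3.20 FPKM in any library. S100a5 was listed at 0 in 6 of the 8 libraries and S100a3, just before S100a4, did not exceed 0.44 FPKM. S100a13 was abundant and even, at 70.6 and 85.3 FPKM in KO YFP+, 80.5 and 79.3 in KO YFP-, 65.1 and 71.0 in WT YFP+, and 63.4 and 75.5 in SRC-3ff. S100a1 had 0.554 and 1.10 FPKM in KO YFP+, 1.91 and 2.10 in KO YFP-, 0.809 and 0.950 in WT YFP+, and 3.79 and 2.61 in SRC-3ff. S100a1 fell in KO YFP+ relative to SRC-3ff (log2 difference -1.20 ± 0.23, adjusted p = 0.0252 in limma) and in WT YFP+ relative to SRC-3ff (-1.15 ± 0.23, adjusted p = 0.0273). Both calls were lost without any one of the 4 libraries compared, in a fit of those 4 alone and with no filter (adjusted p up to 0.0972 and 0.103).

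**Figure D3:**
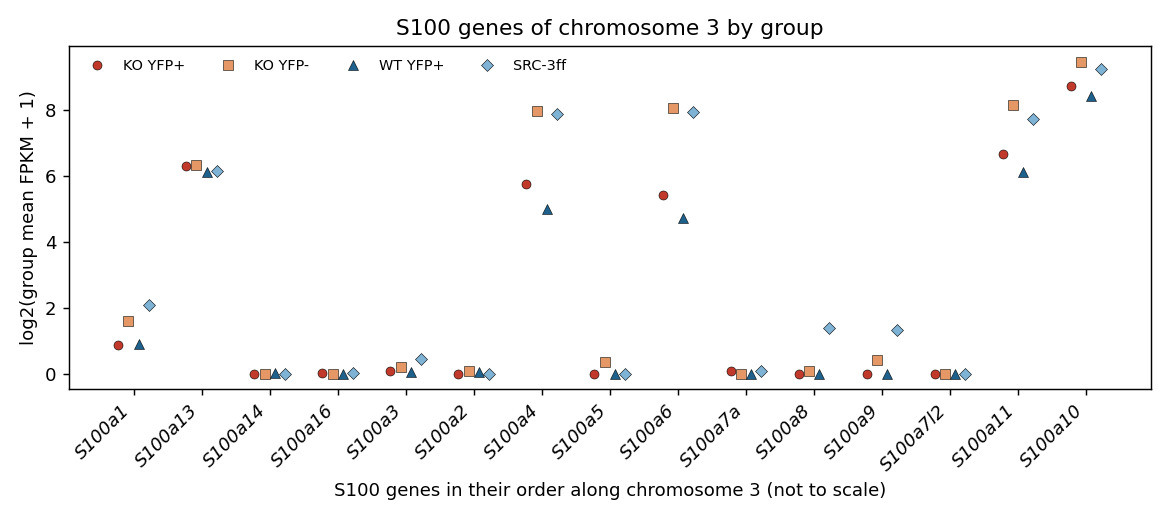
Mean FPKM of each group of 2 libraries, as log2(mean + 1), for the 15 S100 genes of chromosome 3 in their order along it (KO YFP+, KO YFP-, WT YFP+ and SRC-3ff from left to right within each gene). S100a4, S100a6, S100a11 and S100a10 are high and split by group, S100a13 is high and even, and the genes between S100a4 and S100a6 or around them are near 0.

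Known binding partners, receptors and targets of the 10 proteins formed a list of 30 genes, of which 22 passed the filter. Of the 22, 0 were called between KO YFP+ and WT YFP+ in limma (2 had an unadjusted p below 0.05, against 10.4% of all genes). Called lower in KO YFP+ than KO YFP- were 2 (Ahnak and Cd7), against 3.46% of all genes. The same 2 were called lower in WT YFP+ than SRC-3ff, against 5.49%. Against SRC-3ff, KO YFP+ had 6 called lower (Ahnak, Cd69, Cd7, Pak2, Plaur, Plec), against 6.09% of all genes, and 2 with the replicate block. KO YFP- against WT YFP+ had 2 higher (Ahnak, Cd7) and 2 lower (Cd69, St6gal1), with 9.27% of all genes called in either direction. KO YFP- against SRC-3ff had 0 (10 had an unadjusted p below 0.05, against 18.3% of all genes). The formyl peptide receptors Fpr1, Fpr2 and Fpr3, which bind annexin A1, were listed at 0 in every library.

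Ahnak encodes a giant scaffold protein anchored by annexin A2 and S100a10. It had 4.31 and 6.72 FPKM in KO YFP+, 16.3 and 24.8 in KO YFP-, 4.39 and 4.99 in WT YFP+, and 12.3 and 17.9 in SRC-3ff. Both YFP+ groups thus lay below both other groups, as for Anxa2 and S100a10. It fell in KO YFP+ relative to KO YFP- (log2 difference -1.72 ± 0.28, adjusted p = 0.0199 in limma) and in WT YFP+ relative to SRC-3ff (-1.48 ± 0.28, adjusted p = 0.0215). The first call ended when KO YFP+ 84, KO YFP+ 85 or KO YFP- 85 was left out (adjusted p up to 0.102), and the second without WT YFP+ 23, WT YFP+ 24 or SRC-3ff 72 (up to 0.132), and both with no filter.

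Cd7 is a surface glycoprotein of T and NK cells that binds galectin-1. It had 30.0 and 33.3 FPKM in KO YFP+, 103 and 116 in KO YFP-, 36.5 and 44.1 in WT YFP+, and 137 and 215 in SRC-3ff. The ligand gene Lgals1 and this receptor gene were thus lower in the same 4 libraries. Cd7 fell in KO YFP+ relative to KO YFP- (log2 difference -1.75 ± 0.21, adjusted p = 0.00798 in limma) and in WT YFP+ relative to SRC-3ff (-2.07 ± 0.21, adjusted p = 0.00251). The call within the KO mice ended when KO YFP+ 84, KO YFP+ 85 or KO YFP- 85 was left out and with no filter (adjusted p up to 0.0622), and that between the controls held in all 15 alternatives. St6gal1, the enzyme that adds the sialic acid which blocks galectin-1 binding, had 45.1 and 43.1 FPKM in KO YFP+, 34.8 and 32.1 in KO YFP-, 48.5 and 55.7 in WT YFP+, and 41.9 and 39.4 in SRC-3ff. It fell in KO YFP- relative to WT YFP+ (log2 difference -0.62 ± 0.10, adjusted p = 0.014 in limma), a call lost without KO YFP- 85 or WT YFP+ 24 and with only the 4 libraries compared (adjusted p up to 0.0811). Lag3, a receptor for galectin-3, was at 6.04 and 3.13 FPKM in KO YFP+, 13.7 and 6.19 in KO YFP-, 3.40 and 1.22 in WT YFP+, and 2.65 and 2.22 in SRC-3ff, with no call.

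Markers of some other cell types moved with the 8 genes, and those of others did not. Of 8 NK cell markers, 6 were called lower in KO YFP+ than KO YFP- (3.46% of all genes) and 4 lower in WT YFP+ than SRC-3ff (5.49%). Their summed level was 48.8 to 66.4 FPKM in KO YFP+, 257 to 425 in KO YFP-, 35.3 to 42.9 in WT YFP+ and 131 to 191 in SRC-3ff, with Ncr1 at 0 in both libraries of each YFP+ group. Nkg7 made up most of each sum, and the other 7 markers summed to at most 10.2 FPKM in KO YFP+, 72.8 to 141 in KO YFP-, at most 9.88 in WT YFP+ and 45.8 to 86.3 in SRC-3ff. The 3 gamma delta and NKT markers in the table (Trdc, Sox13, Zbtb16) were all called lower in both comparisons, and summed to 2.25 to 2.54 FPKM in KO YFP+, 51.7 to 73.2 in KO YFP-, 2.06 to 3.92 in WT YFP+ and 50.0 to 114 in SRC-3ff. Of 6 plasma cell markers, 2 were called lower in KO YFP+ than KO YFP- and 3 lower in WT YFP+ than SRC-3ff. They summed to 90.8 to 104 FPKM in KO YFP+, 352 to 499 in KO YFP-, 86.4 to 127 in WT YFP+ and 374 to 964 in SRC-3ff, with Tnfrsf17 at 0 in both KO YFP+ libraries. Jchain and Xbp1 made up most of these sums, and Jchain was called lower in both comparisons while Xbp1 was called in neither. The highest of these sums was in SRC-3ff 72, the library that was also the higher of its pair for all 10 genes. Sums of gamma delta and NKT, B cell, macrophage and neutrophil markers were also highest in that library. Those of the other lists were not. The 8 B cell markers summed to 23.5 to 23.7 FPKM in KO YFP+, 67.5 to 70.5 in KO YFP-, 14.7 to 15.9 in WT YFP+ and 60.6 to 113 in SRC-3ff. Cd79b supplied most of the YFP+ sums, at 21.2 to 21.9 FPKM in KO YFP+, 27.2 to 27.9 in KO YFP-, 13.1 to 13.7 in WT YFP+ and 25.8 to 38.1 in SRC-3ff. Blk, a kinase gene, was the other main contributor, at 0.0974 and 0.163 FPKM in KO YFP+, 28.4 and 36.9 in KO YFP-, 0 and 0.109 in WT YFP+, and 29.8 and 62.1 in SRC-3ff. Of the 5 B cell markers tested, Blk was called lower in both comparisons and Cd79b only in WT YFP+ relative to SRC-3ff, with no other call there. Pax5 was at 0 or below 0.01 FPKM in all 8 libraries. The 10 macrophage and monocyte markers summed to 81.3 to 91.7 FPKM in KO YFP+, 120 to 130 in KO YFP-, 67.5 to 83.5 in WT YFP+ and 120 to 160 in SRC-3ff. Most of this was Cst3 in every library, and the other 9 markers summed to 1.09 to 2.20 FPKM in KO YFP+, 12.7 to 18.5 in KO YFP-, 0.850 to 1.74 in WT YFP+ and 28.7 to 37.0 in SRC-3ff. Of these 9, Tyrobp and Fcer1g were called lower in both comparisons, and NK cells are known to express both as well. Apart from Cst3, Tyrobp and Fcer1g, no marker of this list exceeded 2.69 FPKM, the level of Lyz2 in SRC-3ff 72. Cd14 was at 0 in all YFP+ and both SRC-3ff libraries, and Adgre1 in all YFP+ libraries and KO YFP- 85. Macrophages are known to express Lgals3, Anxa1 and S100 genes strongly, and the part of these cell types in the levels of the 10 genes was not tested. The 4 T cell markers summed to 1330 to 1465 FPKM in KO YFP+, 1237 to 1530 in KO YFP-, 1064 to 1413 in WT YFP+ and 1032 to 1065 in SRC-3ff, with no call in any comparison. The 6 neutrophil markers summed to 4.79 FPKM in SRC-3ff 72 and to at most 0.410 FPKM in every other library. The 2 CD8 T cell markers summed to 7.86 to 8.15 FPKM in KO YFP+, 5.11 to 5.72 in KO YFP-, 8.86 to 12.4 in WT YFP+ and 4.16 to 4.20 in SRC-3ff, and the 7 markers of stroma and endothelium to 20.2 to 24.2, 13.4 to 13.8, 24.6 to 27.0 and 14.6 to 18.8 in the same order of groups, so these sums ran the other way. Each rested on 1 gene, Cd8b1 in the first list and Pecam1 in the second, and no other marker of either list exceeded 0.283 FPKM.

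**Figure D4:**
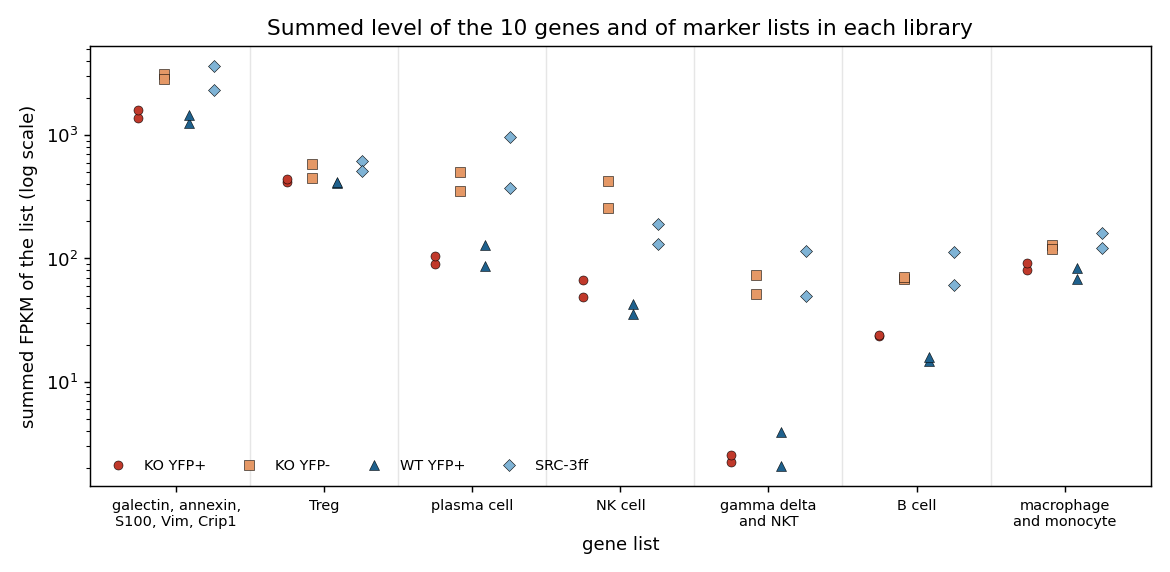
Summed FPKM of the 10 genes and of 6 marker lists on a log axis, with 1 point per library (KO YFP+, KO YFP-, WT YFP+ and SRC-3ff from left to right within each list). The sums of the 10 genes and of all 6 lists are lower in all YFP+ libraries than in the others. The macrophage sum is mostly Cst3. The Treg sum is at 407 to 442 FPKM in the YFP+ libraries and 449 to 622 in the others. Within it, Foxp3 and Il2ra differ in opposite directions between KO YFP+ and KO YFP-.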

How the data were processed

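The authors deposited 1 table of FPKM per gene for 8 libraries; the submitters' processing notes name STAR, StringTie, Trim Galore and the mm10 (GRCm38) build. Versions, annotation and strandedness of counting are not given in the sources. FPKM hold no read numbers, so the depth is unknown and no counting interval was made. All 13 mitochondrially encoded genes are listed at 0, so a 0 can be a missing estimate.

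FPKM were used as deposited. The 14134 genes that reached 1 FPKM in at least 2 libraries were fitted with limma 3.58.1 in R 4.3.3 (lmFit, eBayes with a trend) on log2(FPKM + 1). The 4 groups formed 1 model with 4 residual degrees of freedom, and p-values were adjusted by the Benjamini-Hochberg method over all genes within each of 6 comparisons, with a threshold of 0.05. The smallest two-sided p of an exact permutation with 2 libraries a group is 0.333. The labels do not give the animal of each library, so the p-values measure the spread between libraries. The numbers 84 and 85 recur in both KO sorts and were read as 1 mouse each, and the correlation over genes of the differences between them in both sorts was 0.14. The code was tested on simulated data. Coordinates came from GENCODE M21, which matched 55227 identifiers and not 260.

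The 10 genes, the relatives, partners and marker lists, and the tests were chosen with earlier results of these data known. By rule, all 10 genes were named, with relatives that were called or had a mean of at least 10 FPKM. The rule also took at most 6 called partners, by smallest adjusted p, and the 8 genes nearest in shape. Pak2, also a called partner, is named only where calls are counted. Among the partners, Lag3, Fpr1, Fpr2 and Fpr3 had no call and were named outside the rule. Values of 3 of the 6 partners (Cd69, Plaur, Plec) and of most of the nearest genes are not printed. Tables and plots were made in Python 3.11.15 (pandas 2.3.3, matplotlib 3.10.9). The alternatives were quantile normalization, median-of-ratios scaling, a pseudocount of 0.1, no filter or one at 5 FPKM, a fit of the 4 libraries compared alone, a replicate block and leaving out each library. The separate level of 1 B cell marker is not reported here; it stays in the summed level of its list.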

Additional observations from a re-analysis of the deposited data

Results flagged for a closer look

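Vim was higher in both KO YFP+ libraries than in both WT YFP+ libraries (log2 difference 0.21 ± 0.18) and lower in both KO YFP- libraries than in both SRC-3ff libraries (-0.40 ± 0.18). It was singled out because both KO YFP+ libraries lay above both WT YFP+ libraries, and both KO YFP- libraries below both SRC-3ff libraries. Such separation was common: over all genes tested, 20.6% were higher without overlap in the first comparison. In the second, 3602 of 14134 were lower without overlap. The contrast of both differences was not tested, neither difference was called, and the values are 0.209 and -0.399 before rounding to 2 decimals. Strain changes together with the genotype label in both comparisons, and SRC-3ff has no YFP sort in its label. Vim was the gene whose profile lay farthest from that of the other 9.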

How the results depend on the processing

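Lgals3 and Anxa1 kept their calls under all 15 alternatives in the 4 comparisons of YFP+ with other cells, and S100a6 lost 1, between KO YFP+ and KO YFP- with no filter. With no filter on low values, the 10 genes had 2 calls in KO YFP+ against KO YFP-, 3 in KO YFP+ against SRC-3ff and 5 in WT YFP+ against SRC-3ff, in place of 8, 7 and 8. Without 1 library each, these ranged over 3 to 7, 4 to 8 and 6 to 8. The replicate block gave 6 in KO YFP+ against KO YFP- and changed no other member count by over 1.5 times.

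Relatives called between KO YFP+ and WT YFP+ (1) were 0 with only the 4 libraries compared, under the replicate block and without any 1 library (0 to 0). Against SRC-3ff, KO YFP+ had 1, and 0 with no filter, a minimum of 5 FPKM or only the 4 libraries, 2 under both scalings and the replicate block, and 0 to 2 without 1 library. KO YFP- against WT YFP+ had 2, and 1 with no filter or only the 4 libraries, and 1 to 2 without 1 library. WT YFP+ against SRC-3ff had 3, and 5 under both scalings, 1 with only the 4 libraries and 0 to 3 without 1 library.

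For partners, alternatives were chosen after seeing the data. KO YFP+ against KO YFP- had 2, and 0 with no filter and 0 to 2 without 1 library. KO YFP+ against SRC-3ff had 6, and 1 with no filter or only the 4 libraries, 2 under the replicate block and 1 to 5 without 1 library. KO YFP- against WT YFP+ had 4, and 1 with no filter, 2 with only the 4 libraries and 1 to 4 without 1 library. KO YFP- against SRC-3ff had 0, and 1 under quantile normalization. WT YFP+ against SRC-3ff had 2, and 1 with no filter and 1 to 2 without 1 library.

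Over all genes, no filter gave 68 calls in KO YFP+ against WT YFP+ (in place of 107), 226 in KO YFP+ against KO YFP- (693), 567 in KO YFP+ against SRC-3ff (1448), 687 in KO YFP- against WT YFP+ (1310) and 717 in WT YFP+ against SRC-3ff (1303). With only the 4 libraries compared, the last 3 were 739, 873 and 783. KO YFP- against SRC-3ff (91) gave 44 with a pseudocount of 0.1, 55 with a minimum of 5 FPKM, 0 with only the 4 libraries and 39 under the replicate block. Without 1 library, the counts ranged over 36 to 102, 144 to 739, 193 to 1219, 584 to 1207 and 372 to 1127 in the first 5 comparisons and 0 to 31 in KO YFP- against SRC-3ff.

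Signs turned for differences near 0. Vim in KO YFP- against WT YFP+ was 0.0115 under quantile normalization. Without 1 library, it ran from -0.12 to 0.11, Vim in KO YFP+ against SRC-3ff from -0.4392 to 0.0685, and Crip1 in KO YFP+ against WT YFP+ from -0.3609 to 0.0422. In KO YFP- against SRC-3ff, Lgals1 ran from -0.33 to 0.53, Lgals3 from -0.69 to 0.24, S100a4 from -0.26 to 0.56, S100a6 from -0.28 to 0.65 and Crip1 from -0.42 to 0.19. The cause of these changes was not tested. With 2 libraries per group and an unknown depth, values near 1 FPKM, such as Lgals3 and Anxa1 in WT YFP+, are the least certain.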
